A study of Mus musculus with 10 samples.

Results

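Ribosome footprints of Drosha knockout cells were compared directly with those of Dicer knockout cells, over all genes of the count table. The comparison rests on 4 of the 10 libraries of the series, chosen by their labels: 2 Drosha knockout and 2 Dicer knockout libraries. All are mouse embryonic stem cells of the E14 line, which carries a 129/Ola background and derives from a blastocyst. The Drosha libraries bear the genotype Drosha knockout, the Dicer libraries the genotype Dicer knockout, and the WT libraries no deletion. Libraries of WT, of Dgcr8 knockout and of joint Ago1 and Ago2 knockout cells also entered the fit, for filtering, scaling and the estimate of spread. Every group was grown on gelatine in DMEM with 15% serum and 100 U/mL LIF, the cytokine that keeps these cells undifferentiated, so no group differs from another in treatment. Cells of each group received cycloheximide at 0.1 mg/mL for 2 min, which stalls ribosomes on mRNA, and lysates were digested with 5 units of RNase I per OD260 unit. The monosome RNA went through rRNA depletion, received Drosophila spike-ins and was amplified for 12 PCR cycles. The labels do not say which exons were deleted, how many clones were used or whether replicates were separate cultures, so the p-values speak only to the spread among the deposited samples, which may be technical. Ribosome footprints reflect mRNA amount as well as translation, and no mRNA libraries were analysed here.

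Drosha and Dicer are RNase III enzymes that act one after the other in miRNA production. In the nucleus Drosha and its RNA-binding partner Dgcr8, together called Microprocessor, cut a hairpin out of the primary transcript. In the cytoplasm Dicer cuts the loop from that hairpin, and an Argonaute protein keeps one strand, which guides it to matching sites in mRNAs. Most miRNAs need both enzymes. A few hairpins are formed without Microprocessor and need Dicer alone, one well-known hairpin needs Drosha and is matured by Ago2 without Dicer, and Dicer also cuts long double-stranded RNA. Loss of either enzyme therefore removes most miRNAs while leaving different remainders. Small RNAs were not measured here, and the comparison covers any difference between the knockouts, not these remainders alone.

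The mature sequences below, from the RefSeq annotation of GRCm38.p6, show which small RNAs separate the 2 enzymes by known requirement. They are written 5′ to 3′ with the seed, bases 2 to 8, in capitals. The first 3 are known to need Dicer without Drosha, the next 4 need both enzymes, and the last needs Drosha without Dicer. miR-291a-3p and miR-302b-3p, members of the main miRNA clusters of embryonic stem cells and of primed cells, have the same seed. Whether any of these miRNAs was present in these cells was not measured.
miR-484: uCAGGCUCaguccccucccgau
miR-877-5p: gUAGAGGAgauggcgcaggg
miR-1224-5p: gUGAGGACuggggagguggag
miR-291a-3p: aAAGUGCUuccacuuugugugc
miR-302b-3p: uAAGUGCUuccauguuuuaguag
miR-17-5p: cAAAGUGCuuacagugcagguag
let-7a-5p: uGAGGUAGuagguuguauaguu
miR-451a: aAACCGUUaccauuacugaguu

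Total counts were 1854243 and 2230566 in the Drosha libraries and 5432599 and 1754710 in the Dicer libraries, against 11082243 and 23731070 in WT. A floor of 3 counts corresponded to between 0.552 and 1.71 CPM, the count scaled by library size, in the 4 knockout libraries. Genes at 0 counts numbered 227 in the second Drosha library and 17 to 71 in the other libraries compared. Across genes, which are not independent replicates, log2 CPM of the first Drosha library correlated with r = 0.951 and 0.936 with the Dicer libraries and with r = 0.896 with the second Drosha library. The median absolute log2 difference was 0.508 between the Drosha libraries, 0.337 between the Dicer libraries, and 0.313 to 0.573 between a Drosha and a Dicer library. The first Drosha library was thus nearer to both Dicer libraries than to its own replicate, and results are given by library for that reason.

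Of the targeted genes, footprints on Drosha (chromosome 15, 12824815 to 12935291, plus strand, GRCm38) were 24.3 and 34.5 CPM in the Drosha libraries and 229 and 215 CPM in the Dicer libraries, with 177 and 178 CPM in WT. Both Drosha libraries lay below the other libraries shown. The group means were 29.4 ± 7.24 and 222 ± 10.2 CPM (SD, n = 2 libraries each), a log2 difference of -2.91 ± 0.33 (SE) for the Drosha minus the Dicer knockout, with an adjusted p of 0.0188 by edgeR's quasi-likelihood test. All alternatives kept the direction, between -3.17 and -2.68, but the call was lost with limma-voom (adjusted p = 0.163), with the 4 libraries fitted alone (0.138) and without any 1 of the 4 libraries (0.0819 to 0.215).

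Footprints on Dicer1 (chromosome 12, 104687742 to 104751952, minus strand) were 74.4 and 170 CPM in the Drosha libraries and 15.8 and 22.1 CPM in the Dicer libraries, beside 122 and 124 CPM in WT. The Dicer libraries were the lowest, and the Drosha libraries fell on either side of WT. The log2 difference was 2.72 ± 0.39 (SE), and edgeR's adjusted p of 0.095 missed the threshold. It passed with DESeq2 (adjusted p = 1.26e-07), with a replicate block (edgeR adjusted p = 0.0142) and without the first Drosha library, at a log2 difference of 3.19 (edgeR adjusted p = 0.0127). In each knockout the gene named on its label thus had the lowest values of the 3 groups, with reads remaining.

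Dgcr8, the partner that holds the hairpin for Drosha, had footprints of 169 and 197 CPM in the Drosha libraries and of 64.5 and 76.1 CPM in the Dicer libraries. WT had 32.7 and 33.1 CPM, so that the libraries of the 3 groups did not overlap and Dicer lay between WT and Drosha. The means were 183 ± 19.9 and 70.3 ± 8.24 CPM (SD, n = 2 libraries each), and the log2 difference was 1.39 ± 0.26 (SE, edgeR adjusted p = 0.154). With DESeq2 the adjusted p was 0.000359. Against WT the fitted log2 values were 2.48 for the Drosha and 1.09 for the Dicer knockout.

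As background, Microprocessor is known to cut hairpins in the Dgcr8 mRNA itself and so to lower that mRNA. The annotation places the hairpin of miR-1306 at chr16:18284239-18284317 on the minus strand, inside the coding part of exon 2 of 2 Dgcr8 transcripts. A further annotated hairpin, Gm24572, lies at chr16:18284550-18284637 in exon 2, not wholly inside the coding part. The mature arms of miR-1306 are shown because they mark its hairpin inside the mRNA whose footprints were measured, with no part in capitals.
miR-1306-5p: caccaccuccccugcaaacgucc
miR-1306-3p: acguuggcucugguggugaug
There were 50 tested genes with an annotated hairpin inside an exon, and their median log2 difference was -0.13, with 21 above 0 and 29 below. Of them 3 were higher in each direction at an unadjusted p under 0.05, Dgcr8 among these, where the table as a whole had 3.49% in the Drosha direction and 4.06% in the Dicer direction. The 326 genes with an intronic hairpin had a median of 0.01 and the 10563 genes without one had -0.01.

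**Figure D1:**
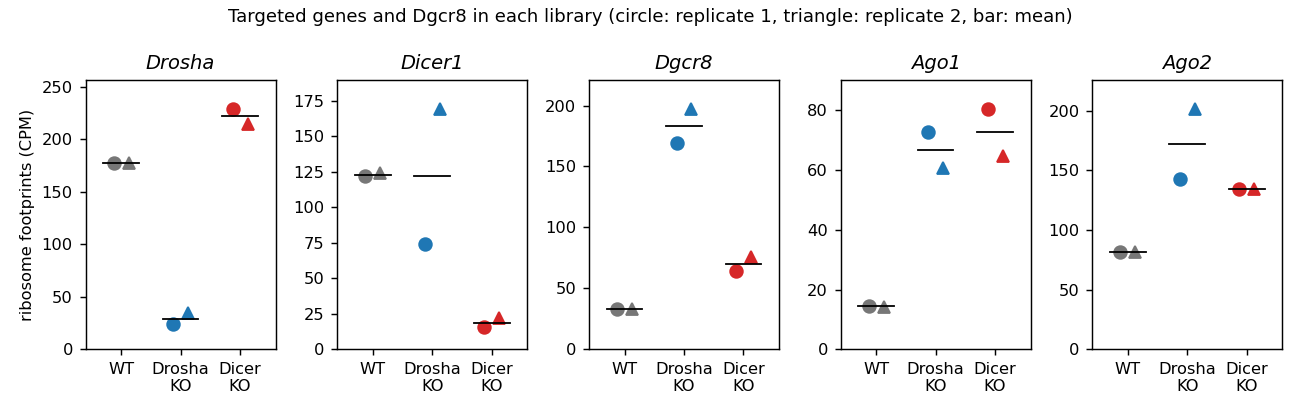
Footprints in CPM (vertical axis, from 0) on the targeted genes and Dgcr8 in each WT, Drosha knockout and Dicer knockout library, with circles for replicate 1, triangles for replicate 2 and a bar at the mean. Drosha is lowest in the Drosha knockout (24.3 and 34.5 CPM), Dicer1 in the Dicer knockout (15.8 and 22.1 CPM), and Dgcr8 is highest in the Drosha knockout (169 and 197 CPM).

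Ago1 and Ago2, which are targeted together in another group of the series, had no adjusted call between the knockouts. Ago1 had 72.8 and 60.7 CPM in the Drosha libraries, 80.5 and 64.5 CPM in the Dicer libraries and 14.7 and 14.3 CPM in WT. The knockout libraries overlapped, all of them above WT, and the log2 difference was -0.13 ± 0.41 (SE, edgeR adjusted p = 0.967), with the sign turning without the second Drosha library (0.02) or the first Dicer library (0.04). Ago2, the slicer, had 143 and 202 CPM against 135 and 135 CPM, a log2 difference of 0.36 ± 0.35 (SE, edgeR adjusted p = 0.878), and 81.9 CPM in both WT libraries.

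Of the 12 genes of precursor export, dicing and tailing, Dicer1 was the single one at an unadjusted p under 0.05. Over all genes the shares were 3.49% in the Drosha and 4.06% in the Dicer direction. Tarbp2, the double-stranded RNA-binding partner of Dicer, had 10.02 and 21.0 CPM in the Drosha libraries and 9.10 and 5.52 CPM in the Dicer libraries, a log2 difference of 1.05 ± 0.54 (SE). Lin28a, which blocks let-7 precursors, had 14.2 and 22.3 CPM against 2.77 and 16.5 CPM, so that its libraries overlapped. None of 25 Argonaute, Tnrc6 and deadenylase genes reached an unadjusted p under 0.05 in either direction, beside the same shares over all genes. Their log2 differences ran from -0.36 to 0.77 with a median of -0.02.

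Over all 10978 genes tested, edgeR called 0 genes (0%) higher in the Drosha knockout and 1 gene (0.00911%), Drosha itself, higher in the Dicer knockout. At an unadjusted p under 0.05 there were 383 genes (3.49%) higher in Drosha and 446 (4.06%) higher in Dicer, 829 (7.55%) in all. DESeq2 called 17 and 50, and limma-voom called 0 and 0 with 471 genes at an unadjusted p under 0.05. Both Drosha libraries lay above both Dicer libraries for 2022 genes (18.4%), and the reverse held for 2056 (18.7%). The median log2 difference over all genes was -0.01, and scaling by total counts moved it to 0.06 and the unadjusted counts to 474 and 371. Leaving out the first Drosha library gave 1740 genes at an unadjusted p under 0.05, leaving out the second gave 375 and leaving out the first Dicer library gave 384. The adjusted calls numbered 6 with a replicate block, 2 (Dicer1 and Tro, both higher in Drosha) without the first Drosha library and 0 without any other 1 of the 4 libraries.

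**Figure D2:**
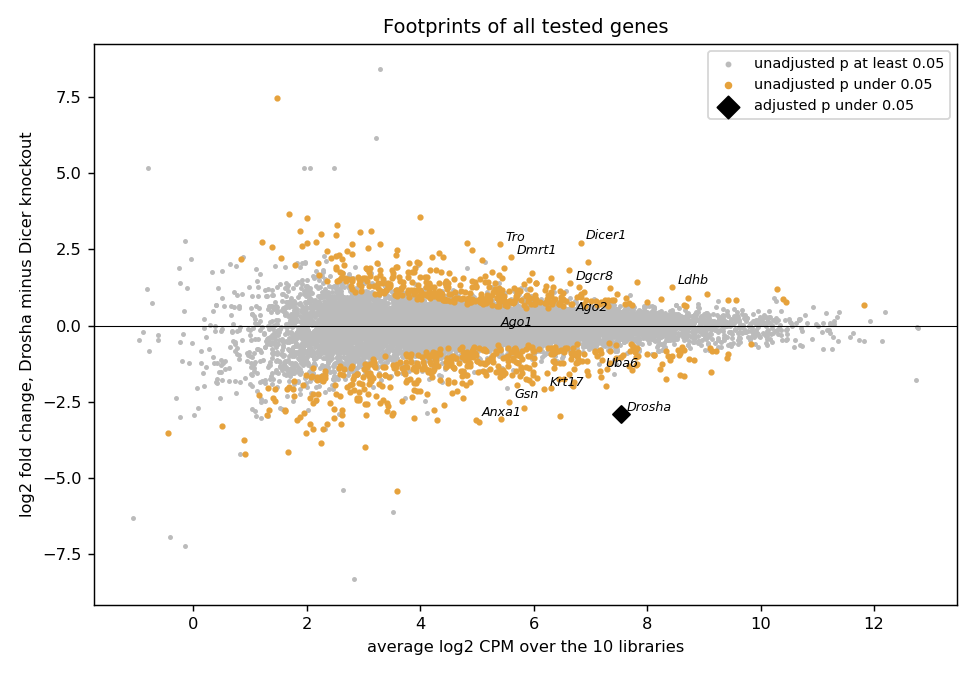
Log2 fold change of the Drosha minus the Dicer knockout (vertical axis) against average log2 CPM over the 10 libraries (horizontal axis) for the 10978 genes tested, with some named genes labelled. Orange points are the 829 genes at an unadjusted p under 0.05, and the black diamond is Drosha, the single gene past the adjusted threshold.

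The genes described next had the smallest p-values at a mean of at least 20 CPM in the higher group with no overlap between the knockouts. Apart from Drosha none passed edgeR's adjusted threshold, so their values are a description. With DESeq2 all of them but Clip3 (adjusted p = 0.0605) and Smtn (0.0783) passed, and with limma-voom none did. Higher in the Drosha knockout was Tro, which encodes trophinin, with 15.3 and 38.0 CPM against 4.15 and 4.41 CPM in the Dicer libraries and 81.9 and 83.8 CPM in WT. The log2 difference of Tro was 2.66 ± 0.46 (SE, edgeR adjusted p = 0.124), and it was 3.16 without the first Drosha library. The DESeq2 adjusted p of Tro was 0.000157. Both knockouts thus had lower values than WT, and the Dicer libraries the lowest.

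Dmrt1, a transcription factor of testis and germ cells, had 51.7 and 110 CPM in the Drosha libraries, 17.4 and 17.1 CPM in the Dicer libraries and 44.2 and 48.2 CPM in WT. Khdc3, a component of the maternal subcortical complex of eggs, had 43.3 and 98.3 CPM against 21.8 and 21.0 CPM, with 74.4 and 80.3 CPM in WT. For both genes the Dicer libraries lay below WT and the Drosha libraries spread widely. Ldhb, a lactate dehydrogenase subunit, had 480 and 387 CPM in the Drosha libraries and 172 and 191 CPM in the Dicer libraries, with 422 and 608 CPM in WT. Its log2 difference was 1.26 ± 0.29 (SE, edgeR adjusted p = 0.284), and the Drosha values lay close to those of WT.

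The other genes named in this direction also had Dicer libraries below both WT libraries. Their log2 differences were 1.51 for Evc2 of the cilium, 1.48 for the ceramide synthase gene Cers4, 1.43 for the heparan sulfate proteoglycan gene Gpc1, 1.16 for the ubiquitin ligase adaptor Klhl22, 1.72 for Clip3 and 1.13 for Smtn, an actin-binding protein. Against WT the fitted log2 values of Gpc1, Klhl22, Clip3 and Smtn were between 0.22 and 0.36 in the Drosha knockout and between -1.49 and -0.76 in the Dicer knockout. Gpc1 carries miR-149 in an intron. Of the 326 tested genes with an annotated intronic hairpin, 5 were higher in Drosha, Gpc1 among them, and 10 in Dicer at an unadjusted p under 0.05, against 3.49% and 4.06% of all genes. In a shorter list of 35 host genes, chosen by hand, Gpc1 was the one at that threshold.

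In the Dicer direction, Krt17, an epithelial keratin, had 55.4 and 53.3 CPM in the Drosha libraries, 242 and 221 CPM in the Dicer libraries and 9.86 and 8.17 CPM in WT. The 3 groups did not overlap, and the log2 difference was -2.09 ± 0.37 (SE, edgeR adjusted p = 0.124). Anxa1, a calcium-dependent phospholipid-binding protein, had 21.1 and 7.86 CPM in the Drosha libraries, 123 and 121 CPM in the Dicer libraries and 1.94 and 2.03 CPM in WT, a log2 difference of -3.10 ± 0.55 (SE, edgeR adjusted p = 0.124). Both genes had their highest values in the Dicer libraries and their lowest in WT.

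Gsn, which severs actin filaments, had 19.5 and 24.0 CPM in the Drosha libraries, 154 and 89.9 CPM in the Dicer libraries and 36.0 and 58.0 CPM in WT. Capn2, a calcium-activated protease subunit, had 13.2 and 10.5 CPM against 63.9 and 59.0 CPM, with 23.5 and 30.6 CPM in WT. Here WT lay between the knockouts, below Dicer and above Drosha. Pls3, which bundles actin filaments, had 30.1 and 26.2 CPM in the Drosha libraries, 92.2 and 81.6 CPM in the Dicer libraries and 32.4 and 24.7 CPM in WT, so that the Drosha values lay among those of WT.

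Dock2, an exchange factor for Rac known from blood cells, had 10.6 and 6.99 CPM in the Drosha libraries and 97.5 and 51.3 CPM in the Dicer libraries. Erap1, which trims peptides for antigen presentation, had 23.2 and 6.55 CPM against 176 and 85.5 CPM. Both were near the low end of the table in WT, with 1.41 to 2.49 CPM for Dock2 and 4.40 to 6.73 CPM for Erap1. The log2 differences were -3.10 for Dock2 and -3.16 for Erap1, and with a replicate block their edgeR adjusted p-values were 0.0142 and 0.0418, past the threshold. Adgrg6, an adhesion receptor, had 6.86 and 3.06 CPM in the Drosha libraries, 52.4 and 27.0 CPM in the Dicer libraries and 17.3 and 18.8 CPM in WT.

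The other genes named in the Dicer direction, Cox18, Uba6 and Grsf1, lie near each other on chromosome 5, between 86109287 and 90224001. Cox18, an insertase of the mitochondrial inner membrane, had 16.4 and 19.7 CPM in the Drosha libraries, 52.8 and 57.4 CPM in the Dicer libraries and 59.6 and 56.4 CPM in WT. Uba6, a ubiquitin-activating enzyme, had 73.3 and 70.3 CPM against 194 and 207 CPM, with 151 and 149 CPM in WT. The low values of these genes lay in the Drosha libraries. Grsf1, an RNA-binding protein of mitochondrial granules, had 60.1 and 59.4 CPM in the Drosha libraries, 151 and 173 CPM in the Dicer libraries and 78.5 and 83.0 CPM in WT. The log2 differences were -1.61 for Cox18, -1.48 for Uba6 and -1.44 for Grsf1, with edgeR adjusted p-values of 0.124, 0.124 and 0.138.

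**Figure D3:**
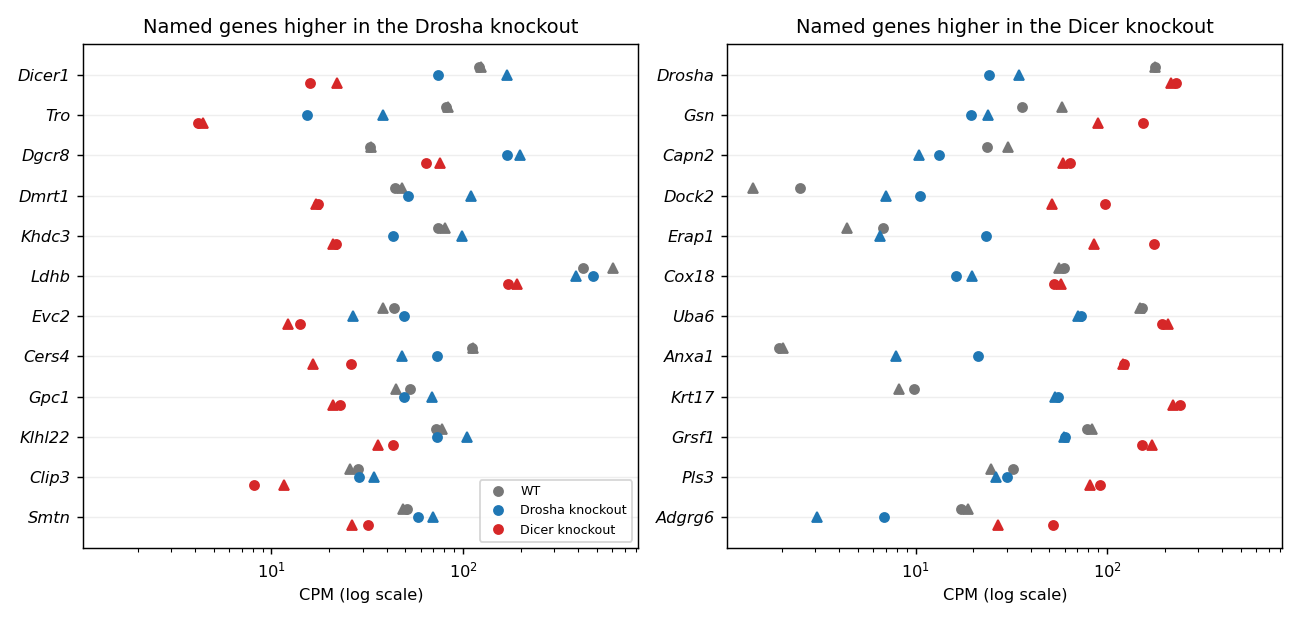
CPM (horizontal axis, log scale) of the 12 genes named in each direction, 1 row per gene, with circles for replicate 1 and triangles for replicate 2 of each group. In every row the Drosha and Dicer knockout libraries do not overlap, which the rule for naming required, while WT lies beside one knockout, between them or outside both.

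Genes with a match to the seeds above were compared with the remaining genes, using the longest annotated 3' UTR of 10933 genes. The motif is the 7-letter complement of the seed on the mRNA strand only. For miR-291a-3p and miR-302b-3p it is AGCACTT, which 17.8% of these 3' UTRs hold, and it shares GCACTT with GCACTTT, the motif of miR-17-5p, so these gene groups overlap. A match is a description of sequence and not a shown site.

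The 1944 genes with AGCACTT had a median log2 difference of -0.13, against 0.01 in the 8989 genes without it. Among them 108 (5.56%) were higher in the Dicer knockout at an unadjusted p under 0.05 and 40 (2.06%) in the Drosha knockout, while the genes without it had 3.74% and 3.76%. The difference between the medians of genes with and without the motif was -0.10, -0.07, -0.21 and -0.17 in the pairs of a Drosha with a Dicer library, but it was also 0.11 (0.105) between the Drosha libraries. Genes with the motif have longer 3' UTRs, with a median of 2494 against 956 bases, and within 3 classes of 3' UTR length, from short to long, the difference was -0.07, -0.11 and -0.10. Against WT the median of genes with the motif was 0.12 in the Drosha and 0.21 in the Dicer knockout, and these values share the WT libraries. With an 8-letter match, AGCACTTA, the 403 genes with it had a median of -0.20.

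The 1588 genes with GCACTTT had a median of -0.11, against 0.01 without, and 1163 genes with CTACCTC, the motif of let-7a-5p, had -0.05, against -0.01. For the miRNAs that need Dicer and not Drosha, the 1867 genes with GAGCCTG (miR-484) had a median of -0.01, the same to 2 decimals as genes without it. Those of miR-877-5p (TCCTCTA, 1077 genes) had -0.08 against 0.00 (-0.004), and those of miR-1224-5p (GTCCTCA, 1450 genes) had -0.03 against -0.01. The 225 genes with AACGGTT, the motif of miR-451a, had -0.08 against -0.01. The sign of the difference between genes with and without the motif varied among the 4 pairs for let-7a-5p, miR-484 and miR-1224-5p, and was below 0 in all 4 for miR-17-5p, miR-877-5p and miR-451a, while between the Drosha libraries it was 0.08 (0.077), 0.06 and 0.09 (0.085) for these 3. Over all genes the median log2 difference was 0.06, -0.01 and -0.08 in the classes of short, middle and long 3' UTRs. Within these classes the difference between genes with and without the motif was 0.04, 0.05 and 0.04 (0.035) for miR-484 and 0.13, 0.03 and 0.02 for miR-1224-5p, above 0 in each, so that the direction over all genes for miR-1224-5p turned. It was 0.12, -0.10 and -0.01 for miR-451a and -0.06, 0.01 (0.005) and 0.01 for let-7a-5p, with both signs. It was below 0 in each class for miR-877-5p (-0.04, -0.06 and -0.03) and for miR-17-5p (-0.10, -0.07 and -0.07).

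**Figure D4:**
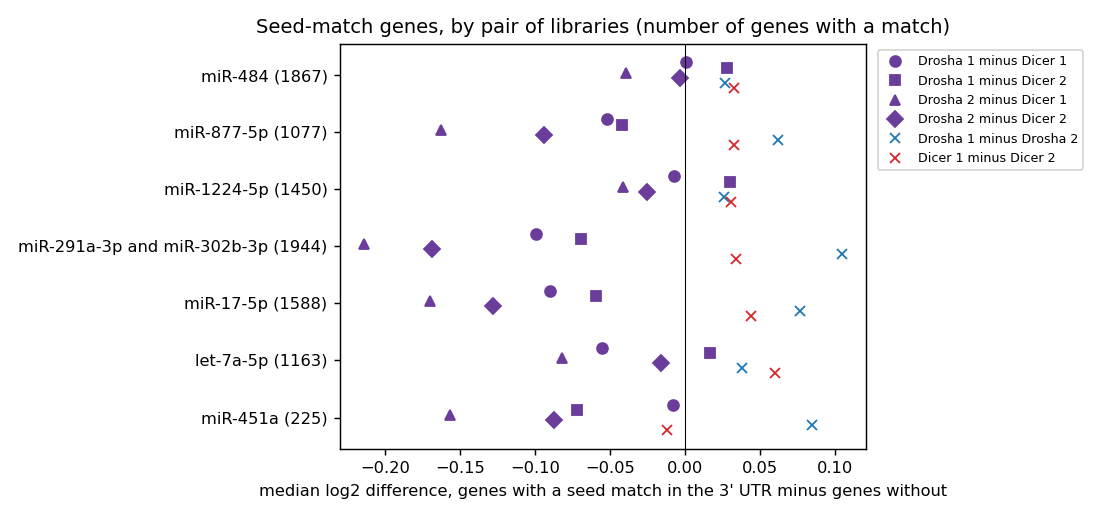
Difference between the median log2 values of genes with and without a seed match (horizontal axis) for each miRNA seed (rows, with the number of genes that hold a match), for the 4 pairs of a Drosha with a Dicer library and for the replicate pairs (crosses). For miR-291a-3p and miR-302b-3p the 4 pairs lie between -0.21 and -0.07, while the replicate pairs lie at 0.11 (0.105) and 0.03 (0.034).

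The miR-290 and miR-302 families have known mRNA targets, of which 20 were listed and 17 tested, and 0 were higher in Drosha and 2 in Dicer at an unadjusted p under 0.05, against 3.49% and 4.06% of all genes. Their median log2 difference was -0.57, with 14 below 0, and in the library pairs it lay between -0.94 and -0.19, against 0.48 between the Drosha libraries. Rbl2, a pocket protein that restrains entry into S phase, had 14.2 and 8.30 CPM in the Drosha libraries and 28.9 and 29.8 CPM in the Dicer libraries. Cdkn1a, the p21 inhibitor of cyclin-dependent kinases, had 42.7 and 39.3 CPM against 75.5 and 66.7 CPM, with 34.8 and 54.8 CPM in WT. The log2 differences were -1.39 ± 0.50 (SE) for Rbl2 and -0.80 ± 0.34 (SE) for Cdkn1a, with edgeR adjusted p-values of 0.527 and 0.645. Arid4b and Arid4a, subunits of Sin3 repressor complexes, also had both Dicer libraries above both Drosha libraries, at -0.73 and -0.57. Of 16 tested let-7 targets, 2 were higher in Drosha and 0 in Dicer at an unadjusted p under 0.05, namely Arid3a (log2 difference 0.97) and Dicer1, which is the gene targeted in the Dicer knockout. The shares over all genes were 3.49% and 4.06%.

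Dicer also cuts long double-stranded RNA, and genes of double-stranded RNA sensing and the interferon response were examined for that reason. Of 43 listed genes 25 were tested, and 24 of these had a log2 difference below 0, with a median of -0.42 against -0.01 over all genes. At an unadjusted p under 0.05, 0 were higher in Drosha and 4 in Dicer, against 3.49% and 4.06% of all genes, and both Dicer libraries lay above both Drosha libraries for 14 of the 25 where 18.7% of all genes did so. None passed the adjusted test. The sensors Ifih1, Dhx58 and Tlr3 and the response genes Irf7, Ifit1, Isg15, Rsad2 and Mx1 were listed but not among the tested genes.

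Parp14, an ADP-ribosyltransferase induced by interferon, had 44.8 and 31.9 CPM in the Drosha libraries, 140 and 62.3 CPM in the Dicer libraries and 8.67 and 8.05 CPM in WT. Its partners in the same response had log2 differences of -1.36 ± 0.47 (SE) for Parp9 and -1.24 ± 0.48 (SE) for Dtx3l, and Xaf1, which promotes apoptosis, had -1.13 ± 0.46 (SE). Parp14, Parp9 and Dtx3l lie near each other on chromosome 16. Parp9 and Dtx3l overlap at their ends on opposite strands, and the strand setting of the counts is not given. Oas2, which senses double-stranded RNA, had 20.05 and 22.7 CPM against 46.5 and 28.1 CPM, and Ddx58, the RIG-I sensor, had 47.5 and 42.4 CPM against 71.6 and 63.4 CPM. The values were higher in both knockouts than in WT for Parp14, Parp9, Oas2 and Ddx58. For Dtx3l and Xaf1 the second Drosha library lay below the second WT library. The list's median was -0.65 and -0.39 for the first Drosha library against each Dicer library and -0.81 and -0.48 for the second, each larger in size than the 0.30 between the replicates of either knockout. Without the first Dicer library the median was -0.29.

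Keratins and cell junction genes were examined as lists, and 0 members passed the adjusted test. Krt8, a keratin of simple epithelia, had 88.6 and 71.6 CPM in the Drosha libraries, 332 and 207 CPM in the Dicer libraries and 26.8 and 36.5 CPM in WT, a log2 difference of -1.75 ± 0.34 (SE, edgeR adjusted p = 0.154). Krt19 had 65.9 and 31.9 CPM against 186 and 142 CPM, and Krt18 had 128 and 119 CPM against 247 and 165 CPM. For all 3 keratins the Dicer libraries were the highest. Of 18 trophectoderm markers, which include these keratins, 9 were tested, with 1 higher in Drosha and 3 in Dicer at an unadjusted p under 0.05, against 3.49% and 4.06% of all genes. Their median was -0.74, with a summed level of 462 and 503 CPM in the Drosha and 959 and 777 CPM in the Dicer libraries. That median is the value of Krt18, and the gap between the sums came from the 3 keratins. The defining regulators Cdx2, Eomes, Elf5 and Gata3 were not among the tested genes, and Esx1, a placental homeobox gene, had 24.8 and 41.5 CPM against 11.3 and 16.0 CPM, the opposite direction.

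Of 19 tested genes of epithelial junctions, 0 were higher in Drosha and 5 in Dicer at an unadjusted p under 0.05, against 3.49% and 4.06% of all genes. The median was -0.78, 16 lay below 0 and 3 above, and both Dicer libraries lay above both Drosha libraries for 10, where 18.7% of all genes did so. Cldn7, a tight junction claudin, had 113 and 66.0 CPM in the Drosha libraries and 243 and 153 CPM in the Dicer libraries. Lgals3, galectin-3, had 121 and 93.9 CPM against 216 and 196 CPM. The libraries of the knockouts did not overlap for either gene, but the list's median was -0.23 for the first Drosha against the second Dicer library and 1.03 between the Drosha libraries themselves, so the list differed more between these replicates than between some pairs of knockouts. The part of other cell types in these results was not tested, and in bulk libraries more cells of a type and more RNA per cell cannot be told apart.

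Among 24 naive pluripotency genes, which mark the labelled cell type, all were tested. Their summed level was 8318 and 9353 CPM in the Drosha libraries, 8878 and 8047 CPM in the Dicer libraries and 8462 and 8887 CPM in WT. Pou5f1, Oct4, had 696 and 920 CPM against 651 and 793 CPM, Nanog had 592 and 667 CPM against 622 and 612 CPM, and Sox2 had 368 and 363 CPM against 276 and 304 CPM. These core factors were abundant in every library. Klf4, a factor of the naive state, had 52.8 and 49.4 CPM in the Drosha libraries, 17.4 and 22.1 CPM in the Dicer libraries and 135 and 158 CPM in WT, with a log2 difference of 1.39 ± 0.36 (SE, edgeR adjusted p = 0.367). Tbx3, another, had 170 and 322 CPM against 129 and 136 CPM, and its log2 difference was 0.90 ± 0.32 (SE). The list's median was 0.16, with 2 genes higher in Drosha and 0 in Dicer at an unadjusted p under 0.05, against 3.49% and 4.06% of all genes. It was 0.00 (0.002) without the second Drosha library.

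Signalling genes differed in both directions. Osm, the oncostatin M cytokine, had 5.80 and 3.93 CPM in the Drosha libraries and 33.2 and 18.8 CPM in the Dicer libraries, and at most 0.166 CPM in WT. Il6st, the receptor subunit gp130 shared by LIF and oncostatin M, had 299 and 139 CPM against 503 and 357 CPM. Pim1, a kinase induced by Stat3, had 131 and 152 CPM against 72.8 and 76.7 CPM. Ligand and receptor thus had their higher values in the Dicer knockout and this target in the Drosha knockout, with log2 differences of -2.44 for Osm, -0.98 for Il6st and 0.92 for Pim1 and no adjusted call. Gbx2, another Stat3 target, had 9.50 and 52.9 CPM in the Drosha libraries and 3.36 and 7.17 CPM in the Dicer libraries, with the second Drosha library well above the other 3.

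In the FGF pathway Etv4, a transcription factor induced by ERK, had 23.7 and 77.8 CPM against 14.8 and 18.2 CPM, and Fgf4, the ligand, had 197 and 106 CPM against 339 and 199 CPM. Tgfbr1, a TGF-beta receptor, had 60.7 and 25.3 CPM in the Drosha libraries and 95.5 and 82.2 CPM in the Dicer libraries, and Smad5, a BMP signal carrier, had 21.1 and 35.8 CPM against 14.04 and 13.8 CPM. The libraries of Fgf4, Tgfbr1, Etv4 and Smad5 did not overlap between knockouts. Both Drosha libraries lay above both Dicer libraries for 1 of 26 Nodal, TGF-beta and BMP genes and 2 of 18 FGF genes. The reverse held for 3 and 1 genes, where all genes had 18.4% and 18.7%. Of the 26 genes 1 in each direction had an unadjusted p under 0.05. The same held for 1 of the 18 FGF genes and 1 of 20 Wnt genes, Tcf7, in the Drosha direction. Over all genes 3.49% were higher in Drosha and 4.06% in Dicer at that threshold.

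Of 16 tested genes of DNA methylation, 1 was higher in each direction at an unadjusted p under 0.05, against 3.49% of all genes in Drosha and 4.06% in Dicer, and the median was -0.04. Tet1, which oxidises methylcytosine, had 257 and 196 CPM in the Drosha libraries, 469 and 409 CPM in the Dicer libraries and 278 and 240 CPM in WT. Dnmt3l, a cofactor of de novo methylation, had 361 and 410 CPM against 168 and 244 CPM, with 457 and 513 CPM in WT. The log2 differences were -0.96 ± 0.29 (SE) for Tet1 and 0.91 ± 0.31 (SE) for Dnmt3l, with edgeR adjusted p-values of 0.444 and 0.494.

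Of 30 histone genes tested, 26 had a log2 difference above 0, the median was 0.40, and 0 passed the adjusted test. At an unadjusted p under 0.05, 4 were higher in Drosha and 0 in Dicer, against 3.49% and 4.06% of all genes, and both Drosha libraries lay above both Dicer libraries for 15, where 18.4% of all genes did so. Hist1h1e, a linker histone, had 454 and 474 CPM in the Drosha libraries, 215 and 238 CPM in the Dicer libraries and 855 and 843 CPM in WT, a log2 difference of 1.04 ± 0.31 (SE, edgeR adjusted p = 0.414). H2afx, the variant marked at DNA breaks, had 697 and 927 CPM against 493 and 414 CPM. The list's median was between 0.10 and 0.79 in the library pairs, against -0.60 between the Dicer libraries, so that the Dicer replicates differed by more than some pairs of knockouts. Many histone genes are near-identical copies whose reads cannot be assigned with certainty.

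Of 19 tested p53 targets, 3 were higher in Drosha and 1 in Dicer at an unadjusted p under 0.05, against 3.49% and 4.06% of all genes, with a median of 0.38. Mdm2, which degrades p53, had 127 and 170 CPM against 86.4 and 81.1 CPM. Phlda3, an inhibitor of Akt, had 45.9 and 66.4 CPM against 26.3 and 34.2 CPM, and Zmat3, an RNA-binding protein, had 36.4 and 30.6 CPM against 17.6 and 21.5 CPM. These 3 were higher in the Drosha libraries, whereas Cdkn1a, also a p53 target, had its higher values in the Dicer libraries as given above.

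**Figure D5:**
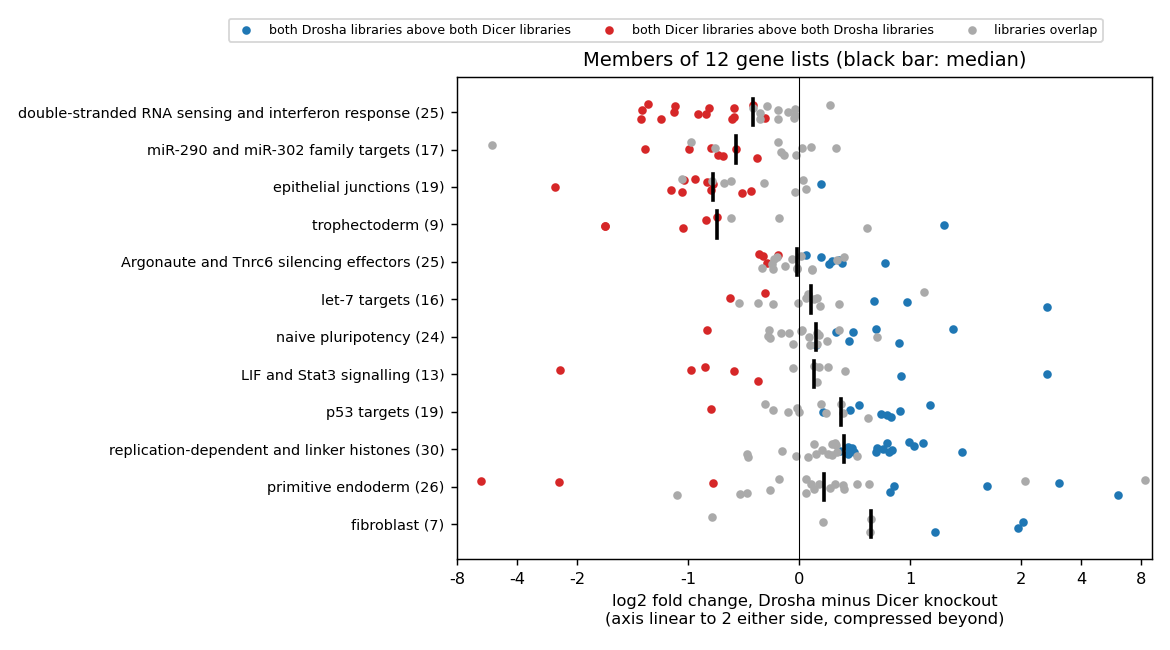
Log2 fold change of the Drosha minus the Dicer knockout (horizontal axis, compressed beyond 2) for the tested members of 12 gene lists (rows, with their number), coloured by whether the libraries overlap, with the median as a black bar. Medians lie below 0 for the interferon, miR-290 and miR-302 target, junction and trophectoderm lists (-0.42, -0.57, -0.78 and -0.74) and above 0 for histones (0.40) and p53 targets (0.38).

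Markers of other cell types that such cultures can hold were summed in each library. Of 35 primitive endoderm markers 26 were tested, with a summed level of 9160 and 6794 CPM in the Drosha and 9618 and 6139 CPM in the Dicer libraries, and 21020 and 22390 CPM in WT. The defining marker Gata6 was at 0 counts in the first Drosha library and both Dicer libraries and at 10 counts in the second Drosha library. Sox17 had at most 1 count in a knockout library, and Pdgfra had 2.76 to 6.99 CPM there against 148 and 139 CPM in WT. Rbp4, a retinol carrier of this lineage, had 6.86 and 24.9 CPM against 1.98 and 1.65 CPM, with 2 genes of the list higher in Drosha and 0 in Dicer at an unadjusted p under 0.05, against 3.49% and 4.06% of all genes.

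For the remaining marker lists fewer genes could be tested. Of 18 fibroblast markers 7 were tested, with sums of 409 and 615 CPM against 373 and 302 CPM. The defining collagens Col1a1, Col1a2 and Col3a1 were not among the tested genes. The fibroblast sums in WT were 555 and 551 CPM. At an unadjusted p under 0.05, 2 of the 7 were higher in Drosha and 0 in Dicer, against 3.49% and 4.06% of all genes. Of 16 neural markers 8 were tested, with sums of 298 and 364 CPM against 642 and 522 CPM. The neural sums in WT were 838 and 686 CPM. Of the 8 genes, 5 had a log2 difference below 0 and 3 above. At an unadjusted p under 0.05, 1 was higher in each direction, against the same shares of all genes. Stmn2, a microtubule regulator of this list, had 96.0 and 125 CPM against 386 and 290 CPM (log2 difference -1.61 ± 0.32 SE, edgeR adjusted p = 0.165). The gap between the neural sums came largely from this gene. Pax6 and Sox1 were not among the tested genes. Of 22 germ line genes 18 were tested, with sums of 456 and 577 CPM against 416 and 338 CPM. The germ line sums in WT were 497 and 523 CPM. Stra8, a meiosis entry gene, had 123 and 164 CPM against 49.4 and 16.0 CPM. The gap between the germ line sums came largely from Stra8. At an unadjusted p under 0.05, 1 of the 18 was higher in Drosha and 0 in Dicer, against the same shares of all genes. Of 16 mesoderm and 16 two-cell-like markers 2 and 3 were tested, and their sums were at most 87.8 CPM in a knockout library. Their part in the differences between knockouts was not tested.

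Unadjusted calls in the stress, translation and metabolic lists stand beside shares over all genes of 3.49% higher in Drosha and 4.06% in Dicer. None of 31 integrated stress response genes, 31 small ribosomal subunit proteins, 47 translation factors or 26 Polycomb genes had an unadjusted p under 0.05. For 22 ER chaperone genes the count was 1, Sel1l of ER-associated degradation, with 116 and 109 CPM in the Drosha and 369 and 190 CPM in the Dicer libraries. The median of that list was 0.43 for the first Drosha against the second Dicer library and -1.16 for the second Drosha against the first Dicer library, so that its sign depended on the library. For 24 glycolysis genes 2 were higher in Drosha, Ldhb given above and the glucose transporter Slc2a3, with 2961 and 2842 CPM against 2045 and 1571 CPM. Large ribosomal subunit proteins had 1 gene in each direction of 43, with a median of -0.02.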

How the data were processed

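The deposited table, made by the authors, holds whole-number counts of reads per gene, not normalized, with 1 column per library and 11011 genes. The submitters' processing notes name Trimmomatic and Bowtie2, the mouse build mm10 (GRCm38) and the fly build dm6 (BDGP6). The counting tool, annotation and strand setting are not given in the sources used here, so overlapping genes, antisense genes and near-identical paralogs cannot be told apart.

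Counts of all 10 libraries were fitted in R 4.3.3 with edgeR 4.0.16 (TMM scaling, filterByExpr, which removed 33 genes, quasi-likelihood test, 1 mean per group), and the Drosha minus Dicer contrast was tested 2-sided with Benjamini-Hochberg adjustment over 10978 genes at 0.05. The 10 libraries left 5 residual degrees of freedom. CPM used TMM-scaled library sizes. The SE was obtained by dividing the size of the log2 fold change by the root of its F statistic. The code was tested on simulated data. Alternatives were RLE and total-count scaling, no filter, at least 10 counts in the 4 libraries, DESeq2 1.42.0, limma-voom (limma 3.58.1), a robust fit, the 4 libraries alone, a replicate block, and each library left out. Depth limits low genes to the floor of 3 counts per library, and this floor covers counting error only. The SE rests on the spread estimated among the fitted libraries, and the SD on the 2 libraries of a group.

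GENCODE M21 (GRCm38) gave coordinates and 3' UTRs, and RefSeq (GRCm38.p6) gave the miRNA sequences. Named were the targeted genes and Dgcr8, 12 genes per direction by adjusted call and then by smallest p, with no overlap and the higher group averaging 20 CPM or more, and up to 4 genes per list by smallest p, with predicted genes skipped. Core pluripotency and lineage markers and other list members given with values were chosen after values were seen. The members, lists and tests were chosen with earlier results of these data known. Some genes that met these rules are counted in their lists but are not reported here.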

Additional observations from a re-analysis of the deposited data

How the results depend on the processing

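Of the edgeR calls at an adjusted p under 0.05 (0 higher in Drosha, 1 higher in Dicer), DESeq2 gave 67 (17 and 50), limma-voom 0, the 4 libraries alone 0 and the other scalings, filters and the robust fit 1. With a replicate block the count was 6 (1 higher in Drosha and 5 in Dicer, namely Drosha, Dicer1, Dock2, Erap1, Ly6a and Scarb2). Same-numbered libraries deviated together with a correlation of 0.235 across genes. Their column labels also carry nearby library numbers, but the labels do not say whether these mark a shared culture or day. The block took replicate numbers from the sample titles, which for the Ago1 and Ago2 knockout differ from those in the column labels. Leaving out 1 library gave 0 to 2 calls in all, 0 to 2 higher in Drosha and 0 to 0 higher in Dicer, and 375 to 1740 genes at an unadjusted p under 0.05, against 829 with all libraries and 471 with limma-voom. Signs turned in 14 of the values of named genes, and not only for small differences. The main log2 difference was 0.934 for Smad7 and 0.945 for Smad1, which are among them. With limma-voom Zscan4d was at -0.038. Leaving out 1 library each time gave log2 ranges of -0.271 to 0.036 for Ago1 (0.02 without the second Drosha library), -0.031 to 1.501 for Smad7, -0.246 to 1.578 for Smad1, -0.017 to 0.599 for Eif1a, -0.986 to 0.807 for Zscan4d, -0.463 to 2.206 for Kdr, -0.451 to 1.251 for Vim and -0.054 to 0.88 for Dnmt3a, turning without the second Drosha library. The ranges were -1.975 to 0.2 for Rpl6, -2.831 to 0.23 for Rpl11, -1.891 to 0.173 for Rps28 and -1.206 to 0.215 for Eif4a2, turning without the second Dicer library. The cause was not tested. Of the remaining values of named genes under the alternatives, 1863 kept direction and side of the threshold, 30 newly passed it and 6 no longer did. Of the list and group medians, 551 stayed within the spread of the main value and 67 moved beyond it. Counts of 1754710 to 5432599 per knockout library limit what can be said of genes near the floor.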

Other observations

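By chromosome, the 375 tested genes of chromosome 12 had a median log2 difference of -0.14, with 63.7% below 0, and the library pairs gave -0.22 (-0.215), -0.21, -0.10 and -0.07. The 597 genes of chromosome 8 had a median of 0.10, with 41.7% below 0, and the pairs gave 0.10 (0.095), 0.13 (0.125), 0.04 and 0.03. Chromosome 5 had the most genes higher in Dicer at an unadjusted p under 0.05 of any chromosome, 49 of its 728 tested genes. On it 19 were higher in Drosha. For chromosome 12 the count was 30 of 375, a larger share, with 7 higher in Drosha. Over all genes the shares were 4.06% higher in Dicer and 3.49% in Drosha. The median of chromosome 5 was -0.02, and Cox18, Uba6 and Grsf1 lie on it. These chromosomes were chosen after the values were seen. The median over all genes was -0.01.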
